A study of Caenorhabditis elegans with 2 samples.

Results

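The regions described here are 370 binding peaks of the Hox protein MAB-5 that lay far from protein-coding genes on the autosomes of Caenorhabditis elegans. They were chosen by signal and by position. From the pooled relaxed peak list, which held 30000 peaks, the 3000 nuclear peaks with the highest signal value were taken, of which 2445 were autosomal. A peak was kept where its summit, the base of highest signal, fell outside every protein-coding gene body and outside the window from 2000 bp upstream to 500 bp downstream of every protein-coding gene start. The 370 members made up 15.1% of these autosomal peaks. The other autosomal peaks were 1442 promoter peaks, with a summit in such a start window, and 633 gene-body peaks, with a summit in a gene body away from the starts. A further 157 peaks met the position rule on X and were not members.

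Hox proteins are homeodomain transcription factors that give cells their identity along the head-to-tail axis. They bind DNA mostly together with PBC-type homeodomain cofactors, on a composite site of a cofactor part and a Hox part, and with Meis-type cofactors such as UNC-62. MAB-5 is the worm's Antennapedia-like Hox protein, acts in the posterior body, and is known for directing the posterior migration of the QL neuroblast descendants and for patterning the epidermis and mesoderm there. The genes mab-5, lin-39, ceh-13 and egl-5 lie near one another in the Hox cluster on chromosome III.

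Chromatin bound by a MAB-5 protein fused to eGFP was immunoprecipitated from whole mixed-stage embryos of both sexes and sequenced (ChIP-seq). The strain was OP27, which carries the allele unc-119(ed3) and the integrated transgene wgIs27. The 2 biological replicates shared this genotype and stage and formed 1 group with no treatment and no untagged group, so no comparison between groups was made. Whole embryos mix all cell types, so binding in few cells and weak binding in many cannot be told apart. The labels do not give the genomic extent of wgIs27, so extra copies of the mab-5 region and binding there cannot be told apart either. The antibody field names mab-5, whereas the description names the eGFP fusion.

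The signal value is the authors' enrichment per peak, on a scale not given in the sources used here, and serves here only to order the peaks of a single list. Members ranged from 18.6 to 74.2 with a median of 22.3, beside medians of 24.2 for promoter peaks and 21.8 for gene-body peaks. The strongest member held rank 43 of the pooled list, whereas the highest promoter peak reached 236 and the highest gene-body peak 225. Since signal chose the members, these levels are a description only. All member intervals were 340 bp long. The authors' thresholded list, made with the irreproducible discovery rate (IDR), held 60 of the 370 members (16.2%). The same share is not given for promoter and gene-body peaks, so whether members differ from them in this was not tested. Members stood mostly apart from each other: 6 lay within 500 bp of another member and 110 within 5000 bp.

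The 12 strongest members had signal values from 58.3 to 74.2, ranks from 12 to 173 in replicate 1 and ranks from 33 to 586 in replicate 2, so both replicates placed all of them high. Those not described further below lay between Y17G7B.17 and Y17G7B.18 on chromosome II (71.8, the strongest of that chromosome), between wwp-1 and ptr-21 on chromosome I (64.8), between T19C3.4 and T19C3.5 (61.8) and between Y22D7AR.6 and Y22D7AR.7 (61.0), both on chromosome III. Among the 12, 11 lay between tandem neighbours, beside 220 of all 370 members. A noncoding gene or pseudogene lay at 5 of the 12 and at 109 of all members. GC content was higher at the summit than in the flank in 9, and in 250 of all members. The composite Hox site described below was found in 4 of their windows and in 83 of all members. The GA repeat was found in 5 and in 65. Signal chose the 12, so these counts are a description only.

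The rule ended inside a run of near-equal values. The last members inside were the peak between ipla-7 and cwn-2 (signal value 18.6227, rank 2993), the peak between T12A7.2 and lips-5 (18.6176, rank 2996) and the peak between Y59H11AR.10 and F42A9.6 (18.6074, rank 3000). The first peak of the same kind outside lay between madd-2 and C39F7.1 with a signal value of 18.5951 at rank 3007.

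Each replicate was also called alone, and the pooled list was made from both, so the replicates are not independent of the choice. A replicate peak covered the summit of 280 members in replicate 1 and of 358 in replicate 2. Replicate 1 placed 136 members (36.8%) among its own 3000 strongest peaks, and replicate 2 placed 220 (59.5%) there. Both replicates did so for 84 members (22.7%), and neither did for 98 (26.5%). Promoter peaks were in both top sets in 29.4% of cases and gene-body peaks in 18.2%. Most members below the thresholded list were therefore ranked high by 1 replicate or by neither, and the replicate ranks are given below beside each named member.

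**Figure D1:**
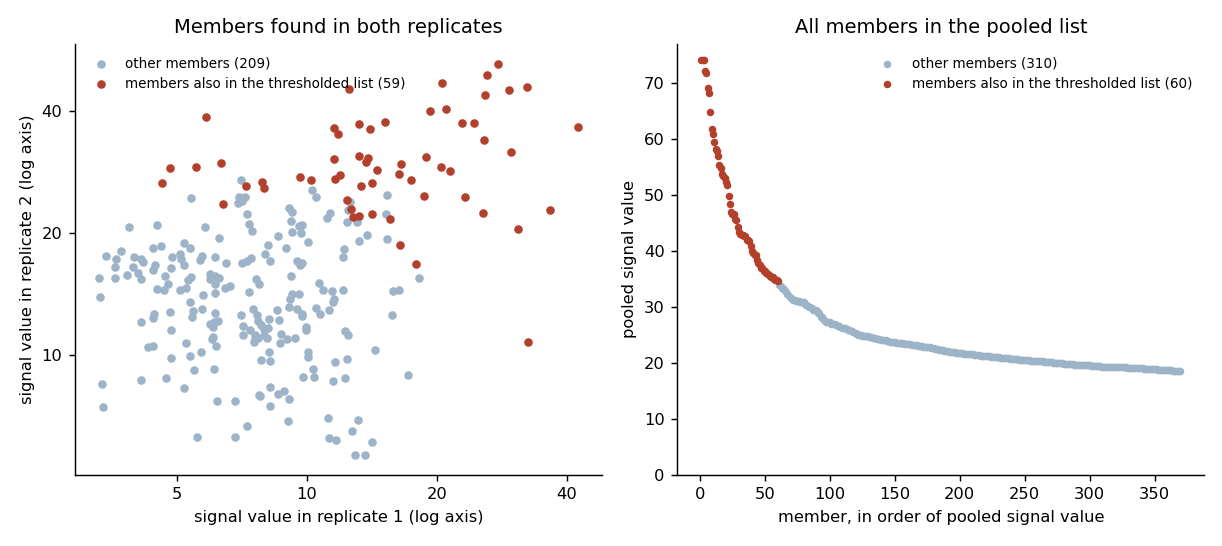
Left, signal value in replicate 1 (x) and replicate 2 (y), on log axes, of the members found in both replicate lists; right, pooled signal value (y) of all 370 members in their order (x). Points in red are members also in the thresholded list: they are the 60 with the highest pooled signal, and the pooled curve falls from 74.2 and flattens towards 18.6.

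To show what the composite site looks like where pooled MAB-5 signal was high, the 201 bp windows of 7 members are printed. They come from the WBcel235 genome as held by RefSeq, on the plus strand, 5′ to 3′, centred on the summit. Not all were high in both replicates: the vab-8 member was not found in replicate 1, and the ina-1 member had rank 26755 in replicate 2. The 7 are among the named members that held the site, chosen after their values had been seen, and other named members held it too. Capitals mark the composite TGATNNAT on either strand.
exc-15 to unc-62, chrV:4491831-4492031: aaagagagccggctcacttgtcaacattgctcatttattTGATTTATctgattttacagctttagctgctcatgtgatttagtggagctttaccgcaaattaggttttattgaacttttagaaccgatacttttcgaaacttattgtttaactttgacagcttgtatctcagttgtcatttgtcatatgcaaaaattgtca
Y22D7AR.6 to Y22D7AR.7, chrIII:1681062-1681262: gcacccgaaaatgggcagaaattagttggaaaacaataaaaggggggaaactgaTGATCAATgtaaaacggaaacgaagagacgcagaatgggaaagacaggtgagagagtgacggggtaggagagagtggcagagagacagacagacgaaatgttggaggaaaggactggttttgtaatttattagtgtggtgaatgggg
mab-5 to cyk-7, chrIII:7788500-7788700: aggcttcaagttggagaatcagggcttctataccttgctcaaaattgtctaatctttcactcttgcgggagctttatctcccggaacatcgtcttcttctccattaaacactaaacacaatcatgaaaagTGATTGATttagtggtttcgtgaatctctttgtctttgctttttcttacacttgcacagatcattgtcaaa
C47A4.1 to ent-4, chrIV:13721107-13721307: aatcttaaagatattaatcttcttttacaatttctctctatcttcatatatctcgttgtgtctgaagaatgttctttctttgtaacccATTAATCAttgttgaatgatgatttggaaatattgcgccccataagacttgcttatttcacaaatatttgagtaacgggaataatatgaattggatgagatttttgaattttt
ogdh-2 to vab-8, chrV:12209080-12209280: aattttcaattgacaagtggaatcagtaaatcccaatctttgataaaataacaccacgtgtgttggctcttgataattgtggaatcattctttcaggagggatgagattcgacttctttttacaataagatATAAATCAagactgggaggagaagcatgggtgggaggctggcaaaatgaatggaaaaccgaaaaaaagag
ina-1 to tax-4, chrIII:9177878-9178078: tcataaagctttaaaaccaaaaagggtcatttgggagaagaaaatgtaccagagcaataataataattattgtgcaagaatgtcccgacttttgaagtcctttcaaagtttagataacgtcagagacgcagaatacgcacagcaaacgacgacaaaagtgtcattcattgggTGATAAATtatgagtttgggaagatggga
F56A11.4 to efn-4, chrIV:554053-554253: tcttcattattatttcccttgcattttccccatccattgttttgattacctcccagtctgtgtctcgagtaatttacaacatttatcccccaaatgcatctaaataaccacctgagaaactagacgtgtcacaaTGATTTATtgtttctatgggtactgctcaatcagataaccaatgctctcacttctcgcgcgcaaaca

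The first window lies between exc-15 and unc-62, the gene of the Meis-type Hox cofactor, with its summit 5530 bp upstream of the unc-62 start. Its signal value was 74.0 in the pooled list, 29.4 in replicate 1 (rank 50) and 45.0 in replicate 2 (rank 63). The third window lies 5146 bp upstream of mab-5 itself and holds TGATTGAT, a site that joins a PBC-type and a Hox-type part. The signal there was 58.3 in the pooled list, 22.9 in replicate 1 (rank 104) and 37.4 in replicate 2 (rank 112). Both members were ranked high by both replicates.

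The composite TGATNNAT was found within 100 bp of the summit in 83 members (22.4%) and in 57 of their flanks (15.4%). The flank is a window of the same length centred 500 bp away. All eligible sequence, which means the autosomal bases that meet the position rule, held it in 14.2% of such windows. The difference of 7.03 percentage points did not pass the threshold over the 9 motifs tested (adjusted p = 0.0564, 2-sided exact McNemar test with Benjamini-Hochberg adjustment). It passed in 8 of the 14 alternative settings tried, among them the flank on the other side of the summit. It was positive in all 14, from 4.05 to 31.7 points. The 8 include a comparison with the letters reversed at the same summits, which uses no flank. How frequent the reversed letters are in eligible windows is not given, so that comparison cannot show an excess at summits. The 8 also include an alternative with other flanks that was added after seeing the data. The p-values of the composite treat summits as independent. The 9 motifs were chosen with earlier results of these data known, so their p-values are not independent evidence. All p-values here are over peaks of 1 pooled list and say nothing of spread between embryo samples.

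The site was found most often in the strongest members, a description by the value that chose them. Among the 124 strongest members, 41 (33.1%) held the composite at the summit and 17 (13.7%) in the flank (adjusted p = 0.00421, exact McNemar test over 9 tests of 3 motifs in 3 strength classes). The 123 members of middle strength held it in 17.9% of summits and 15.4% of flanks, and the 123 weakest in 16.3% and 17.1%. In neither of these classes did the difference pass (adjusted p = 0.800 and 1, same exact test). This split by strength was chosen after the values had been seen, and whether the strength classes differ from each other was not tested. The strongest gene-body peaks, 211 in number, held the site in 33.2%, and the 481 strongest promoter peaks in 18.9%.

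The middle letters NN were not evenly used. TGATTGAT was found in 21 summit windows and 4 flanks, against 1.18% of eligible windows, and was the only 1 of the 16 middles to pass (adjusted p = 0.0146, exact McNemar test). TGATTTAT was found in 19 summits and 15 flanks, TGATAAAT in 13 and 5, and TGATTAAT in 10 and 3. TGATTTAT, the letters beside unc-62, vab-8 and efn-4, was thus nearly as frequent in flanks (4.05%) as at summits (5.14%). Of eligible windows, 1.97% held it.

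**Figure D2:**
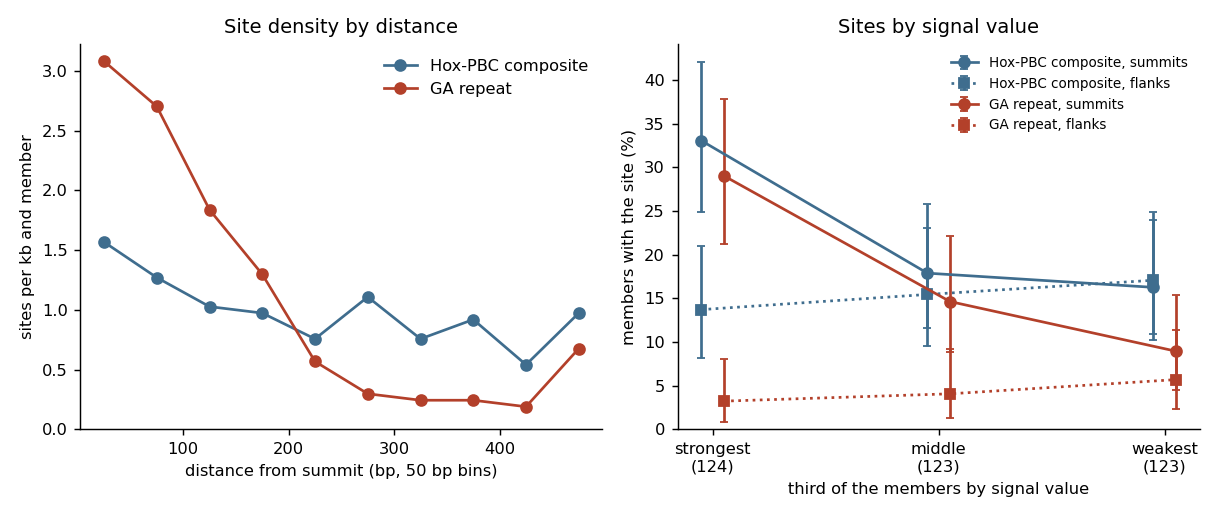
Left, density of the composite and of the GA repeat (sites per kb and member, y) by distance from the summit in 50 bp bins (x); right, share of members with each site (y, with exact 95% binomial intervals) in the strongest, middle and weakest members (x), at summits (solid) and flanks (dotted). From the bin at the summit to that at 150 to 200 bp, the composite falls from 1.57 to 0.973 sites per kb and the GA repeat from 3.08 to 1.30, and both summit shares are highest in the 124 strongest members.

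A GA repeat was more widespread than the composite relative to its flanks. Windows of 3 of the strongest members with the repeat are printed in the same way because they show it with and without a neighbouring second word. Capitals mark GAGAGAG and GACGCAG, or their reverse complements.
Y17D7C.2 to asp-19, chrV:18723681-18723881: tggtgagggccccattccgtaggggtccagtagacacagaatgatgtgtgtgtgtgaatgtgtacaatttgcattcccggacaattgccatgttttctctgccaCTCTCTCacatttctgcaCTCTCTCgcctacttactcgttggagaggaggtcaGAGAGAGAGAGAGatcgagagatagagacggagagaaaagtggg
Y17G7B.17 to Y17G7B.18, chrII:12102499-12102699: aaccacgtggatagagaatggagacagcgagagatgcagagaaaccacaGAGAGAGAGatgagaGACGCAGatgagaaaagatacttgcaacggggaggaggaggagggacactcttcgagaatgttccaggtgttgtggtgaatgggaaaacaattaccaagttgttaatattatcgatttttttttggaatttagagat
T19C3.4 to T19C3.5, chrIII:623899-624099: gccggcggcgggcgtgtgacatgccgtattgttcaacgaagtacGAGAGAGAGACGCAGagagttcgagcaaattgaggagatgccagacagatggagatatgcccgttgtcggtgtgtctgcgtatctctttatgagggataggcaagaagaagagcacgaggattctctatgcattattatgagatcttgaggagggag

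GAGAGAG was found at 65 summits (17.6%), in 16 flanks (4.32%) and in 3.21% of eligible windows (adjusted p = 1.27e-07, exact McNemar test). Among the 124 strongest members the share was 29.03% at summits and 3.23% in flanks (adjusted p = 6.01e-07), and among the 123 weakest it was 8.94% and 5.69% (adjusted p = 0.584, same exact test). Promoter peaks held it in 13.04% and gene-body peaks in 12.6%. The excess over flanks passed in 12 of 13 alternatives. With start windows of 5000 bp, which left 142 members, it was 9.15 points and did not pass. The composite and the repeat shared 16 members, 19.3% of the 83 with the composite and 24.6% of the 65 with the repeat. A further 238 members held neither.

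Of the 9 motifs, fixed with earlier results of these data known, 2 passed against the flanks, which is 22.2% of those tested. The second was TTTCAG, the letters of the worm splice acceptor, which was less frequent at summits (21.6%) than in flanks (32.4%) or in eligible windows (31.8%; adjusted p = 0.00528, exact McNemar test). This call was lost with start windows of 5000 bp, where the difference from flanks was -9.15 points, and with half-widths of 150 bp, where it was -9.19 points. Compared with its letters reversed at the same summits, TTTCAG was the more frequent, by 14.1 points. TAATTA, the core of many homeodomain sites, which can share letters with the end of a composite, was found in 10.3% of summits and 12.4% of flanks. TTTATG, a site of posterior Hox proteins that overlaps a composite with TT in its middle, was found in 18.9% and 15.4%, and TGACAG, a Meis-type site, in 9.73% and 7.30%. TGATAA, the GATA factor site, which overlaps a composite with AA in its middle, was found in 19.2% and 19.5%, and CACGTG, an E-box bound by some basic helix-loop-helix proteins, in 5.68% and 2.43%. The B box, an internal promoter element of tRNA genes, was found in 1.89% and 0.270%. None of these 6 passed (adjusted p from 0.0803 to 1, exact McNemar test), and CACGTG alone was below 0.05 before adjustment (p = 0.0357, same exact test).

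Against the other autosomal peaks, members had no motif whose share passed: 0 of 18 comparisons did (lowest adjusted p = 0.109, 2-sided Fisher's exact test over 18), while 7 of 18 were below an unadjusted p of 0.05. The composite was found in 16.9% of promoter peaks and 20.7% of gene-body peaks. The differences from the members' 22.4% were 5.58 and 1.74 percentage points. The count depended on the settings: without members near noncoding genes 7 of the 18 passed, and with each replicate's own list 2 or 4 did.

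**Figure D3:**
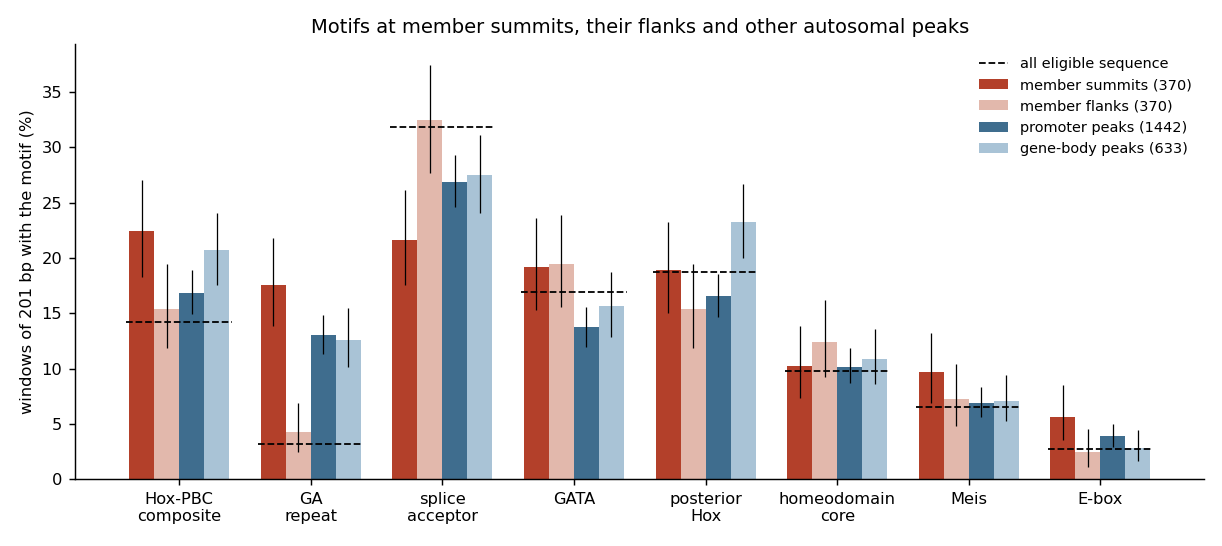
Share of 201 bp windows with each of 8 motifs (y) at member summits, in member flanks, and at the summits of promoter and gene-body peaks, with exact 95% binomial intervals; dashed lines give the share in all eligible sequence. The GA repeat stands at 17.6% in members against 4.32% in flanks, and the splice acceptor letters at 21.6% against 32.4%.

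All 2080 words of 6 bases were compared in the same way. More frequent at summits were 83 words (3.99% of those tested), and less frequent were 38 (1.83%; adjusted p below 0.05, exact McNemar test over all words). Of the 83, 30 consisted of A and G alone on 1 strand, out of 64 such words. GAGAGA led with 138 summits and 47 flanks (adjusted p = 1.20e-10, same exact test). ACGCAG, found at 64 summits and 12 flanks (adjusted p = 2.99e-08, same exact test), does not belong to that family. Its extension GACGCAG, chosen after the scan, was found in 13.2% of summits, 1.08% of flanks and 1.60% of eligible windows. It is thus also a word of promoter peaks (10.5%) and gene-body peaks (7.74%). It shared 22 members with GAGAGAG, with which it can overlap by its first letter, as in the window between T19C3.4 and T19C3.5 above. It shared 9 members with the composite. Of the 38 less frequent words, 30 had at most 1 G or C.

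The base composition moved with these words. The median GC content was 37.3% at summits and 32.3% in flanks, with 250 members higher at the summit and 115 lower (p = 1.29e-12, 2-sided exact sign test). Eligible windows had a median of 33.8%, promoter peaks 36.8% and gene-body peaks 35.8%. Soft-masked repeats, as marked in the RefSeq genome, made up on average 28.7% of summit windows, 42.3% of flanks and 41.7% of eligible windows. The part of base composition in the motif and word shares was not tested. Summit windows made mostly of 36-base words that occur elsewhere in the genome were rare, at 3 members (0.811%), 0.208% of promoter peaks (p = 0.104) and 0.158% of gene-body peaks (p = 0.145, 2-sided Fisher's exact test). With replicate 2's own list alone the difference from promoter peaks passed (0.874 points, p = 0.0384, same exact test, and p from 0.0384 to 1 over the alternatives), and with replicate 1's it had the other sign (-0.117 points). Of eligible windows, 15.8% were of this kind. Such sequence was kept in the eligible bases with which members are compared below, also where multi-copy members were left out. Its part in the comparisons by chromosome, centre, arrangement and noncoding class was not tested.

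Members were unevenly spread over the chromosomes. The sequence that meets the position rule came to 14.3 Mb, or 17.3% of the autosomes. Chromosome I held 89 members (24.1%) on 14.5% of that sequence (adjusted p = 6.19e-06, 2-sided exact binomial test over 5 autosomes), which is 43.1 members per Mb. Chromosome V held 61 (16.5%) on 25.6% (adjusted p = 9.13e-05, exact binomial test), or 16.7 per Mb. Chromosomes II, III and IV held 53, 67 and 100 members and did not pass. The central 50% of each autosome, which is richer in conserved genes than the arms in this species, held 205 members (55.4%, 95% interval 50.2 to 60.5%) beside 44.6% of the eligible sequence (p = 3.42e-05, exact binomial test). These 3 calls were lost in the 1000 strongest peaks and in the thresholded list, and both chromosome calls also with start windows of 5000 bp. In the 60 members of the thresholded list the share minus that of eligible bases was 12.2 points for chromosome I and -10.6 for chromosome V, beside 9.57 and -9.13 over all members, and -1.29 for the centre. In the 106 members of the 1000 strongest peaks the same differences were 6.28, -5.80 and 3.49 points. The intervals here are exact binomial intervals, which cover counting error only.

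A protein-coding gene start lay 3654 bp from the median member, with quartiles of 2471 and 5041 bp and a range from 623 to 19823 bp. Starts of 16 members were over 10 kb away. For 228 members (61.6%) the summit was upstream of the nearest start. The median length of the gap between both neighbouring genes was 8251 bp, beside 8627 bp for the median eligible base. Distance and side were in part fixed by the rule, and carry no test.

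The orientation of the neighbours was not part of the rule. Convergent neighbours, whose ends both face the summit, flanked 50 members (13.5%) and 22.6% of eligible bases (adjusted p = 3.73e-05, 2-sided exact binomial test over 3 arrangements). Tandem neighbours flanked 220 members (59.5%) and 52.2% of eligible bases (adjusted p = 0.00740, same exact test). Divergent neighbours flanked 100 members (27.03%) and 25.1% of eligible bases (adjusted p = 0.401, same exact test). Members were thus less frequent where no neighbouring gene starts. The start windows of the rule remove more sequence beside starts than beside ends, for members and eligible bases alike. In the 60 members of the thresholded list no arrangement passed (adjusted p = 0.0585 for convergent neighbours, same exact test, and 5.95e-05 to 0.0585 over the alternatives). The differences from eligible bases there were -12.6 points for convergent and 7.85 for tandem neighbours, beside -9.07 and 7.31 over all members.

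Because the rule used protein-coding genes only, a member can lie at a noncoding gene. Within 250 bp of the summit, 109 members (29.5%) had an annotated noncoding gene or pseudogene. The share of eligible bases for all classes together is not given, so this count shows neither an excess nor a lack. Small nucleolar RNA (snoRNA) genes, whose products guide chemical modification of ribosomal RNA, lay beside 12 members (3.24%) and beside 0.219% of eligible bases (adjusted p = 2.72e-10, 2-sided exact binomial test over 8 classes). MicroRNA (miRNA) genes lay beside 5 members (1.35% and 0.235%, adjusted p = 0.00394, same exact test), and tRNA genes beside 4 (1.08% and 0.249%, adjusted p = 0.0230). Other noncoding RNA and piRNA genes lay beside 80 members (21.6% and 14.1%, adjusted p = 0.000244, same exact test). Pseudogenes lay beside 16 members (4.32%), a lower share than the 15.5% of eligible bases beside them (adjusted p = 9.44e-11, same exact test). Eligible bases include multi-copy sequence, which was rare at members, and its part in this difference was not tested. The calls for tRNA genes and for the mixed class were lost in the 1000 strongest peaks and in the thresholded list, that for pseudogenes in the thresholded list, and those for miRNA genes and the mixed class with start windows of 5000 bp. The difference from eligible bases was then -10.5 points for pseudogenes in the thresholded list, beside -11.2 over all members. With start windows of 5000 bp it was 1.16 for miRNA genes and 6.90 for the mixed class, beside 1.12 and 7.54. The mixed class stood at 7.62 points in the 1000 strongest peaks and at 5.92 in the thresholded list, and tRNA genes at 0.695 and -0.249, beside 0.832 over all members.

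Long intergenic noncoding RNA (lincRNA) genes lay beside 6 members (1.62% and 1.03%) and did not pass (adjusted p = 0.387, exact binomial test). No member lay beside a snRNA or rRNA gene, and 0 of 370 allows a share of up to 0.811% by the limit of 3 counts, which is the limit given here for every count of 0; the upper end of the exact 95% binomial interval is 0.992%. Within the mixed class, genes annotated plainly as ncRNA lay beside 53 members (14.3% and 4.51% of eligible bases), while piRNA genes, 21U-RNA loci of the germline, lay beside 28 (7.57% and 9.76%). The excess of the class was thus in the former, a split made after the values had been seen and not tested.

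The strongest member of all, between cutl-22 and the calmodulin gene cmd-1 on chromosome V, lay inside linc-128. Its signal was 74.2 in the pooled list, 27.7 in replicate 1 (rank 58) and 52.4 in replicate 2 (rank 33). The strongest member at a miRNA gene was 78 bp from mir-51, between alh-3 and hrg-5 on chromosome IV, with 57.9 pooled, 25.8 in replicate 1 (rank 76) and 33.9 in replicate 2 (rank 157). The members at mir-53, in the same gap (21.5), and inside mir-52 (42.03) concern genes of the same miRNA family, which is known for broad embryonic expression. The remaining members beside miRNA genes were at mir-8209 (30.9) and at mir-58.2 and Y73B6A.17 (18.97).

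The strongest member beside a snoRNA gene was 60 bp from T27A3.9 on chromosome I, with a pooled signal of 42.9 and ranks of 645 and 210 in replicates 1 and 2. The next, 89 bp from Y47D3B.25, lay 2704 bp upstream of plr-1 (41.7, ranks 237 and 337). Both were in the thresholded list. The strongest member beside a tRNA gene was 54 bp from Y65A5A.t1 (26.7, ranks 5534 and 454), and thus was high in replicate 2 alone. The strongest member beside a pseudogene was 10 bp from Y17D7C.3 (72.2, ranks 12 and 123).

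**Figure D4:**
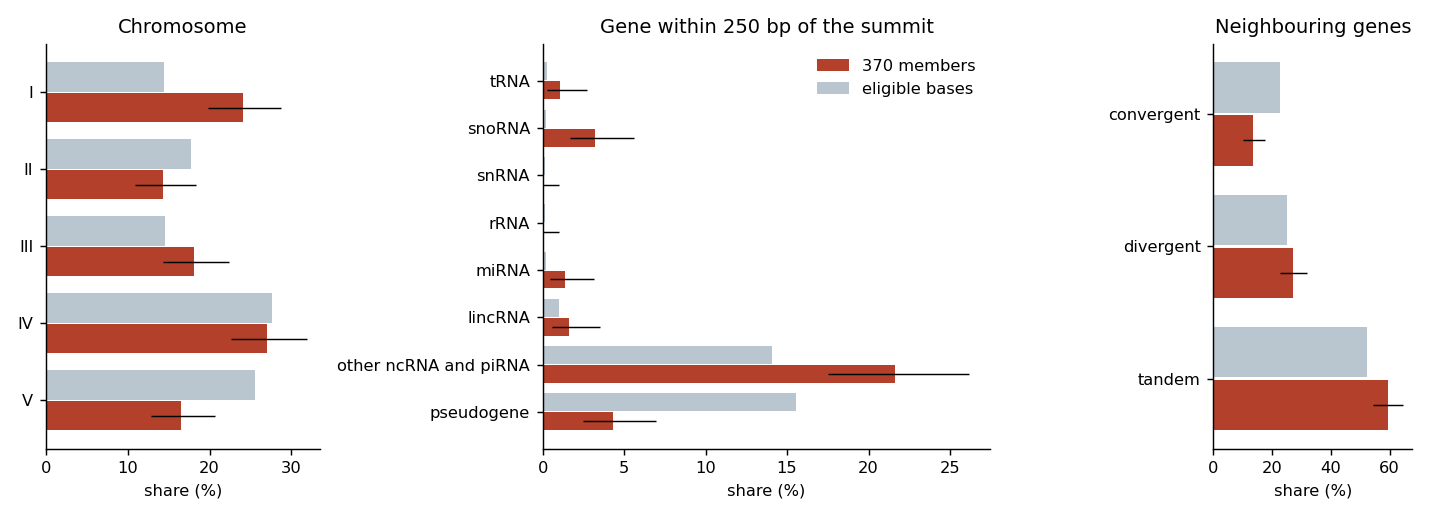
Share of members (red, with exact 95% binomial intervals) and of eligible bases (grey) by chromosome (left), with a noncoding gene or pseudogene within 250 bp (middle) and by arrangement of the neighbouring protein-coding genes (right), in percent (x). Chromosome I stands at 24.1% against 14.5%, pseudogenes at 4.32% against 15.5% and convergent neighbours at 13.5% against 22.6%.

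The members had 587 protein-coding neighbours among the 8249 genes that border eligible sequence, or 7.12%. This share depends on how much such sequence a gene borders. It was 0.824% in the 2064 genes with the least and 17.2% in the 2062 genes with the most, and the median was 5822 bp for the neighbours and 1703 bp for all bordering genes. The counts of lists below are to be read against both values, and being a neighbour does not show that a gene is regulated from the peak. All gene lists were chosen with earlier results of these data known, so their shares are not independent evidence. A member named below by its protein-coding neighbours can also lie at a noncoding gene, which is not always named.

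Of the 6 Hox genes on the autosomes, 4 were neighbours of a member, with a median of 16293 bp of eligible sequence per Hox gene. Upstream of mab-5, in the gap to cyk-7, lay 3 members. Besides the one at 5146 bp described above, there was one at 6028 bp (pooled signal 22.2, ranks 4509 and 4667 in replicates 1 and 2) that also held the composite, and one at 7219 bp (43.5, ranks 562 and 238) that did not. The middle one of the 3 was weak in both replicates, and the outer ones were high in both.

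A member lay beyond the end of lin-39, the Hox gene of the mid-body, beside the DNA ligase gene lig-4 (24.3, ranks 789 and 6772). The member 2093 bp upstream of egl-5, the Hox gene of the tail, was close to the last rank taken (18.6, rank 2985) and had rank 25270 in replicate 1 and 1275 in replicate 2. The Hox genes php-3 and nob-1 had no member as neighbour. Of the Hox cofactors, 1 borders eligible sequence, and that is unc-62.

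Genes of Wnt signalling, which acts upstream and downstream of mab-5 in the Q neuroblasts, were neighbours in 4 of 19 cases (21.1%, median eligible sequence 3136 bp). The ligand gene cwn-2 had 1 member 2472 bp upstream (18.6, ranks 2507 and 17351 in replicates 1 and 2). The gene mig-14, for the protein that carries Wnts to the cell surface, had members 4616 bp upstream (23.6, ranks 19027 and 1881) and 2180 bp upstream (20.9, rank 6383 in replicate 1 and not found in replicate 2). The strongest member of the Wnt list was at a receptor gene.

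The Frizzled gene lin-17 had a member 3540 bp upstream that was the third strongest of all. Its signal was 74.0 pooled, 26.2 in replicate 1 (rank 71) and 49.2 in replicate 2 (rank 41). The summit lay inside Y71F9B.21, a gene of the mixed noncoding class, and no member beside that class was stronger. A second member 2539 bp upstream, which held the composite, was weak (22.7, ranks 22882 and 1747). The Frizzled gene mig-1 had a member 3895 bp upstream with the composite (27.01, ranks 10385 and 810).

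Of 9 bordering genes on a list of genes tied to mab-5 by genetics, 5 were neighbours: lin-17 and cwn-2 again, vab-8, mab-9 and plr-1. Like the other lists, this list was written with earlier results of these data known, so its share of 55.6% is not independent evidence. The gene vab-8 encodes a kinesin-like protein of cell and axon migration and had a member 4147 bp upstream with the composite (32.2, not found in replicate 1, rank 807 in replicate 2). The T-box gene mab-9, which acts in the hindgut and male tail, had a member 3242 bp upstream with the composite (24.4, ranks 3061 and 965).

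The gene plr-1, for a membrane ubiquitin ligase that lowers Frizzled at the cell surface, shared 4 members with sbp-1, the worm's SREBP gene of lipid synthesis. They lay in a gap of 14310 bp with pooled signals of 41.7, 30.9, 25.4 and 19.1. The strongest was in the thresholded list (ranks 237 and 337), and the weakest was not found in replicate 1. None of the 4 held the composite, whereas 1 held GAGAGAG.

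Guidance and migration genes were neighbours in 7 of 23 cases (30.4%, median eligible sequence 4743 bp). The strongest of these members lay 4334 bp upstream of mig-6, the gene of the matrix protein papilin (52.4, ranks 1035 and 126 in replicates 1 and 2). Members with the composite lay 5176 bp upstream of the integrin gene ina-1 (31.7, ranks 497 and 26755) and 5081 bp upstream of the ephrin gene efn-4 (31.4, ranks 330 and 2840). The ina-1 member was thus high in replicate 1 and near the end of the list in replicate 2. The other neighbours were vab-8, the ephrin gene efn-2 (25.1), the plexin gene plx-2 (25.4) and the TRIM protein gene madd-2 (21.3).

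Among other transcription factor families, basic helix-loop-helix genes were neighbours in 6 of 22 cases (27.3%): hlh-1, the MyoD gene of body wall muscle, hlh-2, the common partner of the family, hlh-3, hlh-10, hlh-32 and sbp-1. The hlh-1 member lay 2181 bp upstream (28.3, ranks 2378 and 888), and the hlh-10 member was the strongest after that shared by sbp-1 and plr-1 (35.7, ranks 622 and 373). The members of hlh-3, hlh-10 and hlh-32 lay downstream of these genes, and those of hlh-1, hlh-2 and sbp-1 upstream. Forkhead genes were neighbours in 2 of 8 cases, pha-4, the pharyngeal FoxA gene (26.3, not found in replicate 1, rank 1147 in replicate 2), and fkh-10 (19.3). The pha-4 member lay downstream of its gene and the fkh-10 member upstream. Homeobox genes outside the central Hox cluster gave lin-11, a LIM gene of vulval and neural fates, as the strongest neighbour (42.8, ranks 33 and 7713). The others were lim-7 (29.8), ttx-1 (19.3), unc-86 (19.2) and zag-1 (18.9), which with lin-11 and ceh-13 made 6 of 44 (13.6%). The unc-86 member lay downstream of its gene, and those of lin-11, lim-7, ttx-1 and zag-1 upstream. T-box genes gave 1 of 14 and nuclear hormone receptor genes 10 of 152 (6.58%). GATA genes gave 0 of 6, which allows up to 50%, and Sox genes 0 of 1. The median eligible sequence was 2879 bp for basic helix-loop-helix, 6207 bp for forkhead and 4600.5 bp for homeobox genes. It was 1980.5 bp for T-box and 1443.5 bp for nuclear hormone receptor genes. Of all genes that border 505 to 1703 bp, 2.13% were neighbours. The share was 8.30% from 1703 to 4530 bp and 17.2% above.

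Differentiation genes followed no single pattern. Body wall muscle genes were neighbours in 4 of 18 cases (22.2%): act-1, an actin gene, hlh-1, lev-11 and myo-3. The strongest such member lay downstream of act-1 (57.0, ranks 126 and 291) and 133 bp from T04C12.22, a gene of the mixed noncoding class. All members beside act-1 and myo-3 lay downstream of these genes, and those beside hlh-1 and lev-11 lay upstream. Cuticle collagens gave 5 of 62 (8.06%), neuropeptide and insulin genes 7 of 75 (9.33%), pan-neuronal genes 2 of 15 and intestinal genes 1 of 16. The median eligible sequence was 1316 bp for muscle genes, 843.5 bp for collagens and 2749 bp for neuropeptide and insulin genes. It was 2831 bp for pan-neuronal and 1626 bp for intestinal genes. Among large families, chemoreceptors gave 15 of 757 (1.98%) with a median of 1312 bp of eligible sequence, beside 2.13% of all genes that border 505 to 1703 bp, F-box and MATH genes 1 of 187 (0.535%) and C-type lectins 0 of 111, which allows up to 2.70%. Ribosomal protein genes gave 0 of 18, which allows up to 16.7%. Median eligible sequence was 1673 bp for F-box and MATH genes, 1177 bp for C-type lectins and 1035 bp for ribosomal protein genes. These medians also lie between 505 and 1703 bp.

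**Figure D5:**
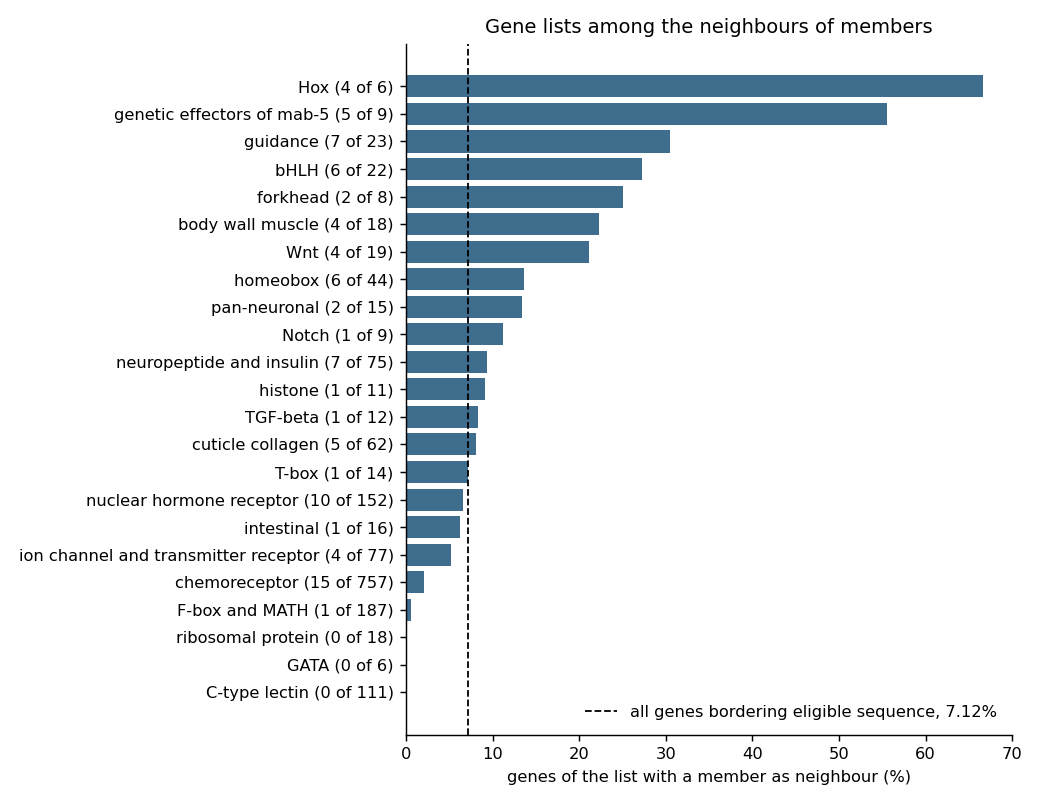
Share of each gene list's bordering genes that had a member as neighbour (x, percent), for 23 lists with more than 1 bordering gene, with the counts beside the names. The dashed line is the 7.12% of all bordering genes; the Hox list stands at 66.7% and the chemoreceptor list at 1.98%.

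Most neighbours had a single member. Of the 587 neighbours, 481 had 1 member, 79 had 2, 16 had 3 and 11 had 4 or more. The most were 7, in the gap of 18574 bp between snt-1, a synaptotagmin gene of synaptic vesicle release, and egl-27, a chromatin regulator of the MTA family with known roles in Hox patterning. The strongest of them lay 9071 bp upstream of egl-27 (69.2 pooled, 19.3 and rank 173 in replicate 1, 40.02 and rank 88 in replicate 2). The other 6 ranged from 18.8 to 29.4, so 1 peak dominated the gap.

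The histone H1 gene hil-7 and C01B10.11 shared 5 members on chromosome IV, of which the strongest had a signal of 59.5 (ranks 87 and 111) and the other 4 ranged from 19.1 to 20.98. The summit of the strongest lay inside C01B10.49, a gene of the mixed noncoding class. C01B10.11 had a sixth member on its other side. F54F12.1 and Y39E4B.6 shared 4 members in a divergent gap of 15313 bp on chromosome III (68.3 for the strongest, ranks 75 and 68). The remaining genes with 4 members were Y17D7C.2, C47A4.1, cyk-7, plr-1 and sbp-1. The 4 members beside cyk-7 are the 3 upstream of mab-5 and the 1 upstream of egl-5, since cyk-7 lies between these Hox genes.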

How the data were processed

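ChIP-seq peaks of eGFP-tagged MAB-5 were analysed from the deposited ce11 lists: 2 relaxed lists of single replicates, 1 relaxed list of both replicates pooled and 1 thresholded list. Per the file descriptions, relaxed lists include background, and the thresholded list was derived from them by IDR. Caller, aligner and protocol were not given in the sources used here, nor were versions. The deposited signal value is the authors' own enrichment per peak. Read depth is unknown, so no counting error from reads was given. The ce10 lists and the control library were not used here.

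Gene models were those of Ensembl release 115 on WBcel235 and symbols those of RefSeq for the same assembly, matched by locus for 99.5% of 19973 nuclear protein-coding genes. Windows spanned 100 bp on each side of a summit (201 bp), and flanks were centred 500 bp to the right, or to the left where the right held another member. Eligible windows were taken every 100 bp (142525 windows). Motifs were searched on both strands. Shares were tested with exact McNemar, Fisher's exact, exact binomial and exact sign tests, all 2-sided, with Benjamini-Hochberg adjustment and a threshold of 0.05, in Python 3.11.15 with scipy 1.17.1, numpy 2.4.6 and pandas 2.3.3. The steps were tested on simulated data. Members, gene lists and motifs were chosen with earlier results of these data known. Members named are the 12 strongest, those at the edge of the rule, up to 3 per list of regulators and the strongest per noncoding class. Genes named are their neighbours and genes with 4 or more members. Other genes were named as whole lists after their values had been seen. Alternatives changed the peak list, number of peaks, start window, window width, flank, noncoding distance and neighbouring or multi-copy summits. One member is not reported on its own here.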

Additional observations from a re-analysis of the deposited data

How the results depend on the processing

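No paired analysis was possible because the replicates form 1 group. Of the 362 values under alternatives, 285 kept direction and side of the threshold, and the causes of the changes below were not tested. Using 1 replicate's own list, the members numbered 367 to 388, the composite's excess over flanks was 5.99 to 7.99 points, multi-copy summits differed from promoter peaks by -0.117 to 0.874 points, and 2 to 4 of the 18 comparisons of motifs with other peak classes passed. The multi-copy difference passed in replicate 2's list (0.874) alone. TGATAA (-2.84 to 4.36), snRNA (-0.118 to 0.427), divergent neighbours (-0.0142 to 0.949), TGACAG (-1.55 to 0.545) and chromosome II (-0.573 to 2.88) took either sign there. The 1000 strongest peaks left 106 members, with the composite at 17.9 points, 0 chromosomes, 3 noncoding classes and 2 comparisons with other peak classes past the threshold, and a centre excess of 3.49 points that no longer passed. TGATAA (2.83), chromosome II (1.13) and the composite against gene-body peaks (-5.76) changed sign there. The thresholded list left 60 members, with the composite at 31.7 points, 0 chromosomes, 0 arrangements, 2 noncoding classes and 2 comparisons with other peak classes past the threshold. The centre (-1.29), tRNA (-0.249) and TAATTA (1.67) changed sign. Start windows of 5000 bp left 142 members, 0 motifs past the threshold (GAGAGAG at 9.15 points, TTTCAG at -9.15), 0 chromosomes and 3 noncoding classes. Chromosome IV (1.67) and lincRNA (-0.287) changed sign. The composite passed without neighbouring summits (7.63), with the flank on the other side (8.38), with members near noncoding genes left out (9.20), against its letters reversed at the same summits (15.4) and, in an alternative added after seeing the data, with flanks that meet the position rule (8.33). TGATAA changed sign in the first 4 of these (0.272, 0.270, 0.383, 5.14), and TTTCAG against its reversed letters (14.1). Half-widths of 150 bp left 1 motif against flanks, with TTTCAG no longer past the threshold (-9.19), and gave 2 comparisons with other classes, both of GAGAGAG, with TGATAA at 3.24; 50 bp gave TAATTA 1.08, and flanks at 1000 bp gave TTTATG -0.541. Without members near noncoding genes 7 of the 18 comparisons with other classes passed. Peak number and length of eligible sequence limit the smaller classes.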

Other observations

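The 157 distal intergenic peaks on X, which were not members, differed from the autosomal members in 1 of the 9 motifs, a comparison chosen after the values had been seen. CACGTG, the E-box, was found in 21 of 370 members (5.68%) and in 0 of 157 peaks on X, which allows a share of up to 1.91% (adjusted p = 0.00810, 2-sided Fisher's exact test over 9 motifs). The composite was found in 24.8% of the peaks on X and in 22.4% of members, and GAGAGAG in 11.5% and 17.6% (adjusted p = 0.860 and 0.201, same exact test). TTTCAG was found in 12.7% on X and in 21.6% of members (adjusted p = 0.0927, same exact test).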
